A study of Mus musculus with 12 samples.

Results

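Probes for the antibody genes were read in 2 kinds of sorted mouse macrophages, from the normal pancreas and from pancreas tumor. The members are 266 of the 39429 non-control probes of the array, chosen by position on mm9: 109 in the kappa light chain window (chr6:67500000-70700000), 146 in the heavy chain window (chr12:114490000-117250000) and 11 in the lambda light chain window (chr16:19020000-19261000). By the array's annotation and gene tables, 173 of them stand for variable segments, 16 for constant regions, 18 for other immunoglobulin sequences and 13 for other transcripts, and 46 carry no annotation. Because the windows were selected on the difference between tumor and normal macrophages, those differences are given here as a description: limma was run over the whole array, and its calls among the members are counts with no weight as a test. Of the 6 arrays in each group, arrays sharing a sample name were averaged, which left 5 samples a group. Both groups were labelled as female C57/B6 mice of 4 to 5 months with no genotype given. The treatment protocol speaks of implanted tumors, while the design text names pancreatic ductal adenocarcinoma tissue and wild-type, KPC or FLT3-CRE/LSL-YFP mice, without saying which gave which sample. The labels do not say that the samples were separate animals, so the spread between samples may be partly technical.

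An antibody is built from heavy and light chains, each with a variable part that binds antigen and a constant part that sets its class. In developing B cells a variable (V) segment is joined to shorter segments and read together with a constant region, so each B cell and its plasma cell descendants carry 1 main heavy and 1 main light chain. Class switching replaces the mu and delta constant regions by a gamma, epsilon or alpha region further along the locus, which changes the antibody from IgM and IgD to IgG, IgE or IgA. Macrophages bear receptors for the constant part of IgG. In bulk samples, fewer cells of a type and less RNA per cell cannot be told apart.

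The sequences below are those of 60-base probes for which the values matter most, as the array files give them, 5′ to 3′. The first 8 mark constant regions and the alpha region, whose values show the differences between classes. Igkv17-121 was well above background on tumor arrays alone, Ighv11-2 and Igkv14-126 were brightest in some normal samples, and Igkv4-62 and Igkv4-57-1 show how alike probes of 1 V family can be. Capitals mark the longest run, of at least 15 bases, that a probe shares with a probe of another member.
Igha, first probe: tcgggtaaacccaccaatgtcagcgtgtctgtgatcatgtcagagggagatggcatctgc
Igha, second probe: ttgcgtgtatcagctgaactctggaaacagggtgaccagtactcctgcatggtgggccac
BC019425: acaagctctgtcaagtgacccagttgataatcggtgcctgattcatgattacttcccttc
Ighg2b: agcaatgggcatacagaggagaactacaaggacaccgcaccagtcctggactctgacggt
Ighg1, first probe: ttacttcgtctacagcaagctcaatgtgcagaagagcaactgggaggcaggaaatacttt
Ighg3: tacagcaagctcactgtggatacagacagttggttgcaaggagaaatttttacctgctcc
Ighm: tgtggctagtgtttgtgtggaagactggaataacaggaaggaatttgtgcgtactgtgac
Igkc: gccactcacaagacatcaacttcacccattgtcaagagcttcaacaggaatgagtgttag
Igkv17-121: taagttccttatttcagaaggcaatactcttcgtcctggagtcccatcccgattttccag
Ighv11-2: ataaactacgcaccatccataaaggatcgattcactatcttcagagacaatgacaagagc
Igkv14-126: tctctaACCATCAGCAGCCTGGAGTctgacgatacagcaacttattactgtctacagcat
Igkv4-62: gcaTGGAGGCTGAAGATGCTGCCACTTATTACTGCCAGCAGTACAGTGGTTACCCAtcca
Igkv4-57-1: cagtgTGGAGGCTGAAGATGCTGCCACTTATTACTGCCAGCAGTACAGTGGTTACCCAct

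The probes of Igha lie on the minus strand at chr12:114496985-114497044 and chr12:114497090-114497149, and that of BC019425 lies close by at chr12:114498348-114498407. On the same strand follow Ighg2b at chr12:114544738-114544797, Ighg1 at chr12:114567263-114567322, Ighg3 at chr12:114597942-114598001 and Ighm at chr12:114659630-114659689. Igkc lies at chr6:70676692-70676751 and Igkv17-121 at chr6:67987157-67987216, both on the plus strand. Ighv11-2 lies at chr12:115286517-115286576 on the minus strand and Igkv14-126 at chr6:67846563-67846622 on the plus strand. Igkv4-62 at chr6:69349806-69349865 and Igkv4-57-1 at chr6:69494355-69494414 lie on the minus strand. Each of these 60-base probes reads without a stop codon in at least 1 frame. The Igkc probe ends in a stop codon, tag, in its first frame, so an open frame here does not mark coding sequence. The annotation gives no exon or intron. Whether the amplification kept the strand is not given in the sources used here, so sense and antisense transcripts cannot be told apart.

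The share of all probes that stood well above background ran from 39.3% to 58.7% over the normal arrays and from 51.1% to 55.6% over the tumor arrays. Among the 266 members, a normal array had 143 to 173 well above background and a tumor array 170 to 187, with 100 so on all 12 arrays and 46 on none. The arrays of normal replicates 2 and 3, which share a name, were the dimmest, with 75th percentiles of 398.4 and 430.2 signal units against 862.8 to 1547 on the others. Values below are relative signals, the processed signal divided by the 75th percentile of its array, in the sample order normal 1, 2 and 3 averaged, 4, 5 and 6, then tumor 1, 2, 3, 4 and 6 averaged, and 5. Differences are means of log2 relative signal in tumor minus those in normal samples, with the standard error (SE) from limma where the probe was kept.

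The alpha constant region, Igha, which encodes the heavy chain of IgA, the antibody class of mucosal secretions, was higher in every tumor sample than in any normal one. The first Igha probe read 3.45, 5.39, 10.9, 22.2 and 11.1 in normal samples and 77.9, 84, 41.4, 84.1 and 76.6 in tumor samples. The groups did not overlap, tumor 3 was the lowest tumor sample and normal 5 the highest normal one, and the difference was 3.02 ± 0.46 (log2, SE, 5 samples each), or 8.11-fold. On the second Igha probe the signals were 1.66, 2.37, 4.56, 14.3 and 4.37 in normal and 58.1, 61.5, 24.6, 66.5 and 63.9 in tumor samples, a difference of 3.67 ± 0.54 or 12.7-fold. Both probes of Igha thus ordered the extreme samples in the same way. The BC019425 probe, which the array names Igh-VJ558 although it lies beside Igha, read 0.196, 0.18, 0.0239, 0.478 and 0.263 in normal and 5.36, 5.42, 2.11, 5.12 and 3.87 in tumor samples, again without overlap. Its difference was 4.69 ± 0.69, and 3.20 after normexp background correction, with 3 of 6 normal arrays well above background, so its size is uncertain. Each of slides 1, 2 and 3 held 2 arrays of either group. Within these slides alone, the first Igha probe differed by 4.20, 3.03 and 2.31 and the second by 4.91, 3.65 and 3.01. Slide 1 carried normal replicate 2, and slide 2 carried its namesake, normal replicate 3. Tumor replicate 4 was also on slide 2, with its namesake, tumor replicate 6, on slide 3. Values per slide, here and below, are therefore not independent repeats.

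The mu constant region, Ighm, which encodes the heavy chain of IgM, went the other way. Its relative signals were 7.55, 11.8, 13.3, 13.6 and 7.98 in normal samples and 2.34, 1.8, 4.05, 3.19 and 4.27 in tumor samples. Every tumor sample lay below every normal sample, with a difference of -1.82 ± 0.31 (log2, SE, 5 samples each). Within slides 1, 2 and 3 the difference was -2.16, -1.86 and -1.48. Ighm was spotted 10 times on each array, with a coefficient of variation between spots of 4.6% to 28%, the highest on the array of tumor replicate 3, where spots ran from 3410 to 8200 signal units. The delta probe, Ighd, annotated from AK134885 and for the heavy chain of IgD that naive B cells carry beside IgM, read 2.52, 1.76, 1.27, 2.24 and 0.908 in normal and 1.16, 1.8, 0.613, 1.01 and 0.451 in tumor samples. The groups overlapped, and the Ighd difference was -0.86 ± 0.42.

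The gamma constant regions, which encode the heavy chains of IgG, did not move as 1 group. Ighg2b read 0.948, 2.69, 0.518, 1.33 and 0.538 in normal and 5.62, 2.6, 5.89, 5.19 and 6.71 in tumor samples. Tumor 2 lay just below the averaged sample of normal replicates 2 and 3 and the other tumor samples lay above all normal samples, with a difference of 2.33 ± 0.46. The first Ighg1 probe read 14.1, 30.8, 16.3, 7.88 and 3.77 in normal and 12.7, 17.5, 5.87, 8.55 and 4.4 in tumor samples, with overlapping groups and a difference of -0.42 ± 0.56 (-0.25 ± 0.52 on the second probe). Of the probes annotated as IgG2a, the one from BC019489 read 1.2, 3.71, 2.28, 0.975 and 0.704 against 4.03, 2.4, 3.07, 2.93 and 2.03 (0.93 ± 0.43) and the one from AK007918 differed by -0.07 ± 0.57, while the Ighg2c probe differed by -0.43 ± 0.40. All 3 overlapped between groups, and the AK007918 value turned positive under normexp correction and under scaling on macrophage identity.

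Ighg3, another IgG class, had the widest spread of any constant region. Its relative signals were 0.0384, 9.29, 5.28, 0.234 and 0.0265 in normal and 0.496, 0.0309, 2.14, 0.0238 and 0.112 in tumor samples, and it was well above background on 4 normal and 2 tumor arrays. High and low samples occurred in both groups, and the difference of -1.41 ± 1.85 was smaller than its error. Ighe, which encodes the heavy chain of IgE, was not well above background on any of the 12 arrays.

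Set against Ighm within each sample, a measure that no scaling of a whole array changes, the first and second Igha probes differed by 4.84 and 5.49 (log2), or 28.7-fold and 44.9-fold. Ighg2b differed from Ighm in the same way by 4.15, or 17.7-fold, and the BC019489 probe of IgG2a by 2.75, or 6.75-fold. In these 4 the ratio was higher in every tumor sample than in any normal sample. Ighm alone was lower in every tumor sample, which raises the ratio of any probe to it. Ighg2b and the BC019489 probe overlapped between groups on their own. How often such ratios separate the groups over all probes was not computed. For Ighg1, Ighg2c, Ighg3, Ighd and the AK007918 probe the ratios to Ighm overlapped between groups, with differences from 0.41 to 1.75. These values show unequal differences between probes, not which of the paired probes differed.

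Light chain constant regions overlapped between groups. Igkc, which encodes the constant part of the kappa chain, the main light chain of mouse antibodies, read 32, 81.4, 46.8, 40.2 and 20.5 in normal and 60.2, 68.6, 38.9, 54.5 and 47 in tumor samples. The averaged sample of normal replicates 2 and 3 was the highest of all, and the difference was 0.41 ± 0.35 (-0.38 within slide 2). For the lambda chain, the probes of Iglc2 differed by 0.78 ± 0.97 and 0.56 ± 0.49 and that of Iglc3, annotated from AF138742, by 0.27 ± 0.68, all with overlapping groups and all negative within slide 2. The first of these Iglc2 probes shares a run of 42 bases with that of Iglc3, so their signals may not be separate. In the variable part, the Iglv1 probe from AY170578 read 0.359, 0.343, 3.35, 0.363 and 0.364 in normal and 3.92, 2.76, 1.21, 4.83 and 6.61 in tumor samples. Normal 4 lay among the tumor samples and the other normal samples near 1 level, with a difference of 2.58 ± 0.68, and another Iglv1 probe differed by 1.62 ± 0.79.

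Counts are given for orientation only, since the windows were chosen with this contrast in view. Limma kept 192 of the 266 members, and 7 of them passed an adjusted p under 0.05 over all 22446 probes tested, of which 0.829% passed. Of the 7, 6 were higher in tumor (0.365% of all probes tested) and 1 was lower (0.463%). The higher ones were both Igha probes, BC019425, Igkv17-121, Igkv5-48 and Igkv6-13, and the lower one was Ighm. Igkv17-121, Igkv5-48 and Igkv6-13 were kept by the filter only through their tumor arrays, where they were high. The filter thus favoured a difference in these 3. All 3 were lost under normexp correction. Igkv5-48 was also lost under quantile normalization, in the authors' deposited log2 values, with slide in the model and with no filter. Igkv6-13 was also lost with no filter, with a filter on all 6 arrays of a group and with a variance trend and robust fit. When 1 sample was left out, Igkv5-48 passed only without normal 1 or tumor 1. Igkv6-13 then passed only without normal 2 and 3 or without tumor 3. Ighm was lost under scaling on macrophage identity and without tumor 1, tumor 2, normal 4 or normal 5. Without tumor 2 the count was 4. These counts use the contrast that chose the windows and support nothing about the members. Within slides 1, 2 and 3 alone 0 members passed in limma, with 4 arrays a fit. Every tumor sample lay above every normal sample for 8 members (3.01%, against 1.07% of all 39429 probes) and below for 6 (2.26%, against 2.35%).

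Heavy chain variable segments had mostly higher means in tumor samples, while nearly all overlapped between groups. Of all 87 such probes, 67 had a higher mean in tumor (77%), with a median difference of 0.78 and quartiles of 0.09 and 1.22. Over all 39429 probes 33.2% had a higher mean and the median was -0.28. Of the 22446 probes tested, which leave out the dimmest, 11266 had a higher mean and the median was 0.002. Only 1 of the 87, Ighv1-58, had every tumor sample above every normal one (1.15%, against 1.07% of all probes). Of the 87, 6 were well above background on no array. Within slides 1, 2 and 3 the median was 0.70, 0.06 and 1.19. It was 0.53 after normexp correction and 0.46 without normal replicate 6.

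The V families of the heavy chain, groups of segments alike in sequence, differed in this. In Ighv1, the largest family, 35 of 39 probes had a higher mean in tumor, with a median of 0.98 and a range from -0.54 to 2.36. Ighv5 had 7 of 8 with a median of 1.01, and all 4 Ighv9 probes were positive with a median of 1.68. Ighv8 had 1 of 5 with a median of -0.40. Ighv1-77 can stand for its family, picked after its values were seen, with 5.64, 15.1, 18.2, 6.56 and 2.7 in normal and 22, 14.3, 11.1, 17.1 and 14.5 in tumor samples. Normal 2 and 3 and normal 4 lay within the tumor range and normal 1, 5 and 6 below it. The mean of Ighv1-77 was 2-fold higher in tumor, with an SE of 0.48 on the log2 scale.

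The same few samples were at the extremes for many heavy V probes. Among the 44 that were well above background on all 12 arrays, normal 6 was the lowest normal sample for 35 and the averaged normal 2 and 3 the highest for 23. Among tumor samples, tumor 3 was the lowest for 26 and tumor 1 the highest for 24. Averaged over the 27 Ighv1 probes of this kind, log2 signals centred on each probe's mean were -1.02, 0.56, 0.24, -0.29 and -1.88 in normal and 0.90, 0.27, -0.07, 0.87 and 0.40 in tumor samples.

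Kappa variable segments had differences in both directions, and 10 of the 84 were well above background on no array. Of all 84 probes, 46 had a higher mean in tumor and 38 a lower one (54.8% higher). Over all 39429 probes that share was 33.2%, and 11266 of the 22446 tested had a higher mean. The 84 kappa V probes had a median of 0.14 and quartiles of -0.26 and 1.28. Within slides 1, 2 and 3 their median was 0.35, -0.05 and 0.43. Every tumor sample was above every normal sample for 4 of them (4.76%), Igkv17-121, Igkv5-48, Igkv1-122 and Igkv4-86. For 2 (2.38%), Igkv8-16 and Igkv4-81, every tumor sample was below, and Igkv4-81 was not kept by the filter. Over all 39429 probes the shares were 1.07% above and 2.35% below, so the share below was near that of all probes. The Igkv6 family had 7 of 7 positive with a median of 1.01 and all 3 Igkv10 probes lay between 2.28 and 2.55. Igkv3 had 1 of 9 positive with a median of -0.25.

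The Igkv4 family, with 17 probes, separated samples within each group. Its median difference was -0.04, with 5 positive and 12 negative. Over its 11 probes well above background on all arrays, centred log2 signals averaged -0.82, 0.51, 1.09, 0.49 and -1.42 in normal samples and 0.61, 0.81, 0.26, -0.43 and -1.11 in tumor samples. In each group the samples thus lay on both sides of the mean. Igkv4-62, whose sequence is printed above, read 2.11, 5.95, 6.93, 5.04 and 1.01 against 5.76, 6.48, 5.04, 1.77 and 1.18, and Igkv4-57-1, which shares 53 bases with it, 1.28, 4.05, 6.01, 4.34 and 0.793 against 3.56, 5.18, 3.16, 1.09 and 0.597. Tumor 5 was the lowest tumor sample for 21 of the 32 kappa V probes well above background on all arrays, and normal 6 the lowest normal sample for 19.

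Some members were well above background in 1 group alone, 14 (5.26%) in tumor arrays only and 9 (3.38%) in normal arrays only, of which 10 and 6 were V segments. Over all probes the shares were 5.26% and 3.52%. Igkv17-121 read 0.024, 0.0518, 0.0225, 0.022 and 0.0154 in normal samples and 0.496, 0.601, 0.316, 0.216 and 1.39 in tumor samples. None of the 6 normal arrays and all 6 tumor arrays had it well above background, and in tumor it was higher by at least 4.47-fold. For this bound, each array of the dimmer group was given the larger of the probe's own signal and the smallest signal that counted as well above background there. Ighv5-16 was above background on 5 tumor arrays and at least 2.83-fold higher, and Igkv6-13, also on 5, at least 1.88-fold higher. The log2 difference of Igkv17-121 was 4.30 ± 0.49 and 1.51 after normexp correction. In the other direction, Igkv4-56 was well above background on 2 normal arrays and 0 tumor arrays and at least 1.48-fold lower in tumor. Igkv5-48 read 0.194, 0.139, 0.0604, 0.0271 and 0.0801 in normal and 0.272, 0.644, 0.746, 1.62 and 0.485 in tumor samples, above background on 2 and 6 arrays, with a difference of 2.97 ± 0.58 (1.28 after normexp correction).

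Some V segments were bright in part of the normal samples. Ighv11-2 and Igkv14-126 are known as a recurrent pair in antibodies of B-1 cells, a B cell subset of the body cavities, that bind phosphatidylcholine. The RefSeq genes used here for names, however, class Igkv14-126 as a V segment pseudogene, 1 of 7 variable probes so classed. Ighv11-2 read 3.1, 0.468, 0.0261, 0.598 and 4.35 in normal and 0.019, 0.0331, 0.0164, 0.0197 and 0.158 in tumor samples, and was well above background on 5 normal arrays and 1 tumor array. Igkv14-126 read 5.38, 4.61, 0.0772, 5.42 and 10.9 against 0.0171, 0.203, 0.56, 1.2 and 0.111. Normal 4 was the lowest normal sample and normal 6 the highest for both, and the groups overlapped for both. The differences were -4.31 ± 1.25 and -3.75 ± 1.44, and 0.45 for Igkv14-126 within slide 2. After normexp correction, which shrinks differences of dim probes, that of Ighv11-2 was -2.19. Igkv8-16 read 1.07, 7.38, 0.517, 0.268 and 0.407 in normal and 0.186, 0.113, 0.23, 0.109 and 0.188 in tumor samples, without overlap and with a difference of -2.42 ± 0.77.

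More kappa segments varied from near background to bright inside a group. Igkv9-124 read 1.29, 1.63, 0.0232, 0.0241 and 0.0136 in normal and 0.986, 1.09, 3.21, 1.81 and 1.05 in tumor samples. Igkv9-120, of the same family, read 0.233, 1.71, 0.0214, 0.0216 and 0.0577 against 1.28, 0.582, 2.13, 0.897 and 0.885. For both, tumor samples were all bright and normal samples were split, with the averaged normal 2 and 3 among the bright ones. Igkv5-39 read 0.0339, 3.04, 0.734, 0.149 and 0.0153 in normal and at most 0.23 in tumor samples. Igkv12-46 read 0.0248, 0.515, 2.32, 0.0224 and 0.137 against 1.66, 0.83, 1.63, 0.398 and 0.665. On the heavy chain, Ighv9-1 read 0.0294, 0.558, 0.032, 0.0271 and 0.26 against 0.196, 1, 0.135, 0.204 and 4.19, with tumor 5 alone above 1.

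Samples of 1 group differed more than arrays that share a name. Over the 87 variable and constant probes well above background on all arrays, the median absolute log2 difference was 0.102 and 0.117 for the 2 pairs of arrays that share a name, against 0.47 to 2.15 for the 28 other pairs of 1 group and 0.518 to 2.26 for the 36 pairs of different groups. For the 13127 probes outside the windows the same values were 0.124 and 0.137, 0.29 to 0.598, and 0.339 to 0.611. The within-group SD had a median of 0.92 for the 44 heavy V probes, 0.73 for the 32 kappa V probes and 0.80 for the 11 constant probes, against 0.43 outside the windows. The 90th percentile outside was 0.75, and 36 of 44 heavy and 15 of 32 kappa V probes exceeded it. For heavy V probes the median SD was 1.09 in normal and 0.52 in tumor samples.

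Signals of V probes are not independent of each other. Of the 173 variable probes, 84 share a run of at least 20 bases with a member of another name and 35 a run of at least 30, and 47 share fewer than 15. Members of another name include unannotated probes, of which 5 overlap a named member, so some of these runs may lie in the same segment. Correlations over the 10 samples, after subtracting group means, are given as a description. Their median was 0.94 over 7 pairs of heavy V probes sharing at least 30 bases, 0.82 over 68 pairs sharing 15 to 29, and 0.47 over 869 pairs sharing fewer. For kappa V probes it was 0.98, 0.72 and 0.36 over 11, 31 and 452 pairs. Pairs share arrays and scaling, and related segments can both be hybridized by 1 transcript, so a count of V probes is no count of clones. None of the 16 constant probes shared 20 bases with a probe outside the windows, and 2 shared as much with each other.

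The windows also hold probes that the annotation does not tie to immunoglobulin genes. Of the 46 without annotation, 5 overlap a named member, among them probes over Igkv12-46, Igkv6-15 and Ighv3-8. Of the 46, 9 had a higher mean in tumor, with a median difference of -0.47. However, 18 of them were well above background on no array and 17 were kept, so this median includes background signal. Of the 13 for other transcripts, 3 were kept. Adam6b, a gene of the ADAM family with a role in sperm that lies within the heavy chain locus, differed by 0.88 ± 0.49, Gm10088 by -0.00044 ± 0.23 and A530030E21Rik by -0.42 ± 0.34, with overlapping groups each. A530030E21Rik shares at least 20 bases with 77 probes elsewhere on the array, so its signal may come from other sites. At the ends of the windows, the nearest probes outside were Rpia (0.26) at the far end of kappa, Tmem121 (0.90) and Zfp386 (-0.77) for heavy, and Hira (-1.28) and Olfr164 (-0.38) for lambda. The outermost inside were Igkv2-137 (-0.76) and LOC102632036 (-0.10), the first Igha probe and an unannotated probe (0.86), and Gm10088 and A530030E21Rik. Olfr164 and LOC102632036 were well above background on no array. Hira was so on 2 normal and 0 tumor arrays, and Rpia on 1 normal and 5 tumor arrays. Differences of such dim probes may reflect background.

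Taken as a share of the summed relative signal of all 39429 probes, the 207 probes for constant, variable and other immunoglobulin sequences made up 0.161% to 0.3% in normal samples and 0.326% to 0.477% in tumor samples. Heavy constant probes made up 0.0329% to 0.0557% and 0.0885% to 0.14%, heavy V probes 0.0517% to 0.133% and 0.125% to 0.193%, and kappa V probes 0.0367% to 0.0718% and 0.0421% to 0.0847%. The first 2 of these ranges did not overlap between groups and the others did. Bright probes weigh most in such sums.

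Markers of the cells that make antibody were read in the same samples. Of 22 B cell genes, 17 were tested, 8 positive and 9 negative, and limma passed 0 of them (4 at an unadjusted p under 0.05), with a median difference of -0.05. Their summed relative signal was 51.7 to 91 over normal samples and 48.3 to 82.7 over tumor samples. The defining marker Ms4a1, a surface protein of B cells, was well above background on 0 of 12 arrays. Cd79b, a signalling chain of the B cell receptor, read 3.73 to 5.02 in normal and 1.93 to 4.98 in tumor samples (-0.46 ± 0.26, limma adjusted p = 0.486), and Cd79a, its partner, differed by -0.36 with overlapping groups (limma adjusted p = 0.918). Spib, a transcription factor of B cells and plasmacytoid dendritic cells, differed by 2.64 ± 0.94, Pou2af1, a coactivator of immunoglobulin promoters, by 1.08 ± 0.41, and Bank1, a B cell adaptor, by -1.79 ± 0.58, with limma adjusted p of 0.269, 0.313 and 0.228.

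Plasma cell and secretion genes likewise gave 0 of 19 tested past the threshold in limma (3 at an unadjusted p under 0.05), 14 positive and 5 negative, with a median of 0.26. Of all probes tested 12.9% had an unadjusted p under 0.05. Jchain, the chain that joins IgA and IgM into polymers, read 0.142, 0.65, 0.285, 0.254 and 0.471 in normal and 0.935, 1.23, 0.462, 1.36 and 0.824 in tumor samples. Of the tumor samples, only tumor 3, which was also the lowest in Igha, lay inside the normal range, and the difference was 1.51 ± 0.44 (limma adjusted p = 0.172). Xbp1 and Prdm1, factors of plasma cell differentiation that macrophages also use, differed by 0.42 ± 0.25 and -0.25 ± 0.51 (0.506 and 0.874), and Mzb1, a chaperone of antibody secretion, was well above background on 1 normal and 4 tumor arrays. Tnfrsf17, the survival receptor BCMA of plasma cells, and Fkbp11, a folding enzyme of secretory cells, were lower in mean, by -3.31 ± 0.85 and -2.23 ± 0.74 (limma adjusted p of 0.127 and 0.239).

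Genes that rearrange and switch the loci were mostly dim. Rag1, Rag2 and Igll1 were not kept by the filter, and 4 of 10 genes of this list were tested with 0 past the threshold in limma and 0 at an unadjusted p under 0.05. Dntt, which adds bases at segment joints, differed by -0.27 ± 0.31. Of 12 factors that bind immunoglobulin enhancers and promoters 0 passed in limma (1 at an unadjusted p under 0.05), with a median of 0.31. Of 9 receptors that bind immunoglobulin 7 were tested and 0 passed in limma (3 at an unadjusted p under 0.05). Fcgr3, an activating receptor for IgG, was higher in every tumor sample (35 to 53.3) than in any normal one (23.3 to 33.9), by 0.54 ± 0.22 (limma adjusted p = 0.331). Fcgr4 and Fcgr2b, an activating and the inhibitory IgG receptor, differed by 1.05 ± 0.36 and 0.85 ± 0.29, with overlapping groups.

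The sorted cells carried macrophage markers in both groups, and acinar cell markers differed between the groups. All 18 macrophage identity genes were tested and 0 passed in limma (2 at an unadjusted p under 0.05), with Csf1r, the receptor for macrophage growth factor, at 63 to 114 in normal and 52 to 80.3 in tumor samples and Adgre1, which encodes F4/80, lower in mean by -0.80 ± 0.24 with overlapping groups (limma adjusted p = 0.197). Cd163, a scavenger receptor of tissue macrophages, was the macrophage gene with every tumor sample (0.872 to 4.09) below every normal one (4.24 to 14.2), by -1.77 ± 0.45 (limma adjusted p = 0.123). Markers of acinar cells, which make digestive enzymes, were lower in tumor for 14 of 14, of which 10 fell past the threshold in limma (4 without normal 5), and their summed relative signal was 526 to 5180 in normal and 7.18 to 283 in tumor samples. Of 10 neutrophil markers 1, Retnlg, which encodes resistin-like gamma, rose by 4.34 ± 0.78 (limma adjusted p = 0.0337), and it passed in 3 of the 10 fits that left out 1 sample, those without normal 1, normal 6 or tumor 5. The summed neutrophil signals were 18.1 to 24.2 in normal and 22.8 to 32.7 in tumor samples. T and NK cell markers (11 tested, 0 at an unadjusted p under 0.05) and plasmacytoid dendritic cell markers (9 tested, 1 so) gave 0 past the threshold in limma, with summed signals of 11.6 to 19.4 and 65.8 to 120 in normal and 8.78 to 20.3 and 56.9 to 92.1 in tumor samples. The part of other cells in the immunoglobulin signals was not tested.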

How the data were processed

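Sorted macrophages from normal mouse pancreas and pancreas tumor were read on 12 one-colour arrays. Per the labels' protocols, a Sigma kit amplified the cDNA, which carried Cy5. The authors deposited, per spot, an intensity that Agilent Feature Extraction 11.5.1.1 had background-subtracted and detrended, per the file headers, and a table of log2 values, which equalled quantile-normalized log2 processed signals.

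Spots with outlier flags (0.401%) were left out, 0 were saturated, and the log2 processed signal was averaged per probe and set against the 75th percentile of its array. Probes that 3 or more arrays of a group, of 6, showed well above background were tested with limma 3.58.1 in R 4.3.3 (two-sided, Benjamini-Hochberg over 22446 probes, adjusted p under 0.05). The fit was tested on simulated data, where 76% of probes changed by 3 on the log2 scale and 39% of those changed by 1.5 were recovered. In that simulation 13 of 128 calls were false, a larger share than the 0.05 that the threshold aims at. The arrays' number limits the precision. Probes were named through the array's annotation and RefSeq genes (GRCm38.p6), whose coordinates were not used.

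The members, the marker lists and the rule for named genes were chosen with earlier results of these data known, and the members' categories were written with their values known. The rule took all constant probes, all members above background on every array, the 6 of each locus that varied most among samples, kept probes of other transcripts, the probes at window ends, and the marker genes with the smallest p or fixed as defining. It named 119 members, and others, such as Igkv5-48, were named after their values were seen. Those that show a pattern are given with values and the rest in ranges and counts. Some genes that the rule names are not reported here.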

Additional observations from a re-analysis of the deposited data

Results flagged for a closer look

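Among the 119 members named by the rule, 238 groups of 5 samples were examined for a sample whose gap to its nearest neighbour exceeded 0.71 of the group's range, and 10 groups (4.2%) had one, where chance gives about 1 in 20. Values are log2 relative signals. Tumor 3 was the low sample in 4 of them: both Igha probes, at 5.37 (next 6.26) and 4.62 (next 5.86), Ighv1-7 at 3.63 (next 4.15) and Ighv1-52 at 2.79 (next 3.56). The other low samples were tumor 2 for Ighg2b, at 1.38 (next 2.38), tumor 5 for Igkv3-12, at -0.77, and normal 4 for Igkv14-126, at -3.69 (next 2.20). High samples were tumor 4 and 6 averaged for an Igkv2-116 probe, at 3.23 (next 2.17), normal 4 for the Iglv1 probe of AY170578, at 1.74 (next -1.46), and normal 2 and 3 averaged for AY171990, at 2.71 (next 0.89).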

How the results depend on the processing

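The limma count of 186 probes past the threshold was 593 with 12 arrays as separate samples, 293 with a variance trend and robust fit, 0 in slides 1, 2 and 3 alone and 85 to 286 when 1 sample was left out. Leaving out normal replicate 1 gave 117, normal 4 gave 116, normal 5 gave 85 and normal 6 gave 286, while leaving out tumor 1 gave 110 and tumor 2 gave 106. For the same settings the count of 7 members was 14, 8, 0 and 4 to 8, and that of 11 marker genes became 0 in each slide alone and 4 to 12 when 1 sample was left out. Quantile normalization, the authors' table, other scalings and filters kept these counts within 1.5 times, with 5 to 8 members. The median difference over all 146 heavy window probes was 0.22, was 0.0094 after normexp correction and turned to -0.24 within slide 2. By the looser test of positive and significant spots, medians of 189 members on normal and 203.5 on tumor arrays were detected, against 156.5 and 182. Of the 119 named members 48 kept their sign in all 21 settings and 71 did not, most often within slide 2. Scaling on macrophage identity moved the median difference of all probes from -0.28 to -0.15 and quantile normalization to -0.03. No paired analysis was possible because the replicate numbers follow accession order and pair no samples, and slide with sample name in the model gave 199 probes and 6 members. The causes were not tested.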
